A study of Mus musculus with 26 samples.

Results

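The Fc-gamma receptor genes Fcgr1, Fcgr2b, Fcgr3 and Fcgr4, together with Fcer1g, the gene of the signalling chain that the activating receptors share, were followed in microglia sorted from mouse cortex. They were chosen by gene symbol, and they make up 5 of the 31053 genes listed for each library. In GRCm38 coordinates Fcgr1 lies alone on chr3:96282909-96293969 on the minus strand. The other members lie within 275749 bases of chromosome 1, with Fcgr2b at chr1:170958617-170976547 (minus strand), Fcgr4 at chr1:171018920-171029761 (plus strand), Fcgr3 at chr1:171051174-171064935 (minus strand) and Fcer1g at chr1:171229572-171234365 (minus strand).

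Fc-gamma receptors bind the constant part of immunoglobulin G and so link antibodies to phagocytes. In the mouse, Fcgr1 (the high-affinity receptor), Fcgr3 and Fcgr4 encode activating receptors, which depend on the immunoreceptor tyrosine-based activation motif (ITAM) of the Fcer1g chain to recruit the kinase Syk. Fcgr2b encodes the inhibitory receptor, whose inhibitory motif (ITIM) recruits the phosphatase encoded by Inpp5d, and the balance between both kinds of receptor sets the response of a macrophage to immune complexes. Microglia, the resident macrophages of the brain parenchyma, carry these receptors and use them in the uptake of antibody-coated material.

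The 18 libraries came from the somatosensory (S1) cortex of wild-type C57Bl/6N mice whose mothers had received an intraperitoneal injection at E12.5 of either saline or poly(I:C), an artificial mimic of viral RNA given to induce maternal immune activation (MIA). Cells were sorted by Cd11b, Cx3cr1 and Cd45 after removal of the meninges. The groups were saline and MIA at E13 (3 libraries each), at E15 (3 each) and at P14 (4 saline, 2 MIA). E13 and E15 are stage names from the labels, which drop the fraction of a day. The paper dates both collections at the same fraction of a day as the injection, the first a full day after it. The conditions thus shared strain, genotype, injection day and sort, with treatment and stage as the variables compared. The paper's own tests of MIA included sex of the cells and sequencing batch as covariates, and it reports differentially expressed genes at each age. Batch is not in the labels, and neither covariate entered the fits below. Embryonic libraries pooled embryos whose sex was not distinguished, and the paper describes these samples as mixed in sex. P14 libraries also held cells of both sexes, except that the P14 saline replicate 3 female (3F) and replicate 3 male (3M) were separate libraries. Because the labels do not place the replicates of a group in separate litters, p-values measure the spread between libraries, and because each stage was collected apart, stage and collection cannot be told apart.

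After removal of cells with fewer than 500 genes or more than 20% mitochondrial UMIs, 67847 cells with 654011361 UMIs (unique molecular identifiers, each a captured 3′ end) remained. Cells per library ranged from 280 to 6375, total UMIs from 6160925 to 105751888, and median UMIs per cell from 7860 to 24494 at E13, from 8483 to 11721 at E15 and from 3682 to 6787 at P14. All 17 of 17 microglia markers were detected in every library. Their summed level was 20924 to 22628 CPM (UMIs per 1000000 UMIs of the library) at E13, 31387 to 39831 at E15 and 67487 to 76160 at P14, against 574 to 2300, 472 to 971 and 344 to 433 CPM for 12 border macrophage markers and at most 68.8 CPM for 14 blood myeloid markers. Neuron-like cells, those with at least 3 neuronal markers and more neuronal than microglial marker UMIs, were most frequent in E15 MIA replicate 1, at 1263 of 5803 cells (21.8%), and 47.4% of the cells of E15 saline replicate 1 carried at least 3 of 12 dividing-cell markers. In all, 2811 cells shared their barcode with a cell of another library, including 136 of the 280 cells of E13 MIA replicate 1 (48.6%) and 263 of the 375 cells of E13 MIA replicate 2 (70.1%). Sharing crossed stages. Of the cells of E13 MIA replicate 2, 68.8% shared a barcode with P14 saline 3F, and of those of E13 MIA replicate 1, 47.5% with P14 MIA replicate 1. Where shared barcodes were counted once, each was kept in the library in which it had the most UMIs, and 1828 cells were left out. Only 1 and 4 of these were in E13 MIA replicates 1 and 2, against 304 in P14 saline 3F, 282 in 3M and 238 in E15 MIA replicate 3. The main values include the cells left out, and values without them are given where they bear on a result.

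Promoters of 3 members are shown because these genes differed in how they tracked stage and interferon-stimulated genes. At E15 and P14, Fcgr4 and Fcgr1 had the highest CPM ratios of the members between cells that expressed interferon-stimulated genes and other cells, and Fcgr2b rose in both steps between stages after either treatment. The highest median ratio at E13 was instead that of Fcgr2b. Fcgr1 was also called higher in both steps after saline, though not in the first step after MIA. The sequences are RefSeq promoters in GRCm38.p6, from 250 bases before to 50 bases after the annotated start, at chr3:96293920-96294219 (minus strand) for Fcgr1, chr1:171018676-171018975 (plus strand) for Fcgr4 and chr1:170976022-170976321 (minus strand) for Fcgr2b. Capitals mark matches on either strand to 3 motifs that were chosen with the results known, namely the interferon-stimulated response element GAAANNGAAA, the gamma-activated site TTCNNNGAA and the PU box GAGGAA bound by Spi1 (PU.1).
Fcgr1: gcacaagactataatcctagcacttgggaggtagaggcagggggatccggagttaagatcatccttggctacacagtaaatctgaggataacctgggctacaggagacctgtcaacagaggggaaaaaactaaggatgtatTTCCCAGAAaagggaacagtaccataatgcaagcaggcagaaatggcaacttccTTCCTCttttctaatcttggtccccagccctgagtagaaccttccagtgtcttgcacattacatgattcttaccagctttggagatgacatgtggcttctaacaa
Fcgr4: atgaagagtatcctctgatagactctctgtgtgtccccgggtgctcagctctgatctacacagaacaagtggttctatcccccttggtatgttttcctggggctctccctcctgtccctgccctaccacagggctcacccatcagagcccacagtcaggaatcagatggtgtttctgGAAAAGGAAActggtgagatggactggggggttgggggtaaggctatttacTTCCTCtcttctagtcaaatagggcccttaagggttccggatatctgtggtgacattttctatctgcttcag
Fcgr2b: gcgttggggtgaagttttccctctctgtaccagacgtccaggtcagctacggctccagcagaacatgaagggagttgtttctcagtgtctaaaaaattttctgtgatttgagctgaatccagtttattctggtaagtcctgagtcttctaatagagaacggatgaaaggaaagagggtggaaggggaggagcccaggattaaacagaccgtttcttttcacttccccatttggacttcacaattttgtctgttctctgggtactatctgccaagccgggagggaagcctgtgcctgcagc
The Fcgr4 promoter held the response element as GAAAAGGAAA, first base at -73 from the start, a motif found in 3.44% of the 32851 mouse promoters of the same length. The Fcgr1 promoter held the gamma-activated site as TTCCCAGAA at -109, a motif found in 8.30% of promoters. The PU box, found in 28.3% of promoters, was read on the opposite strand as TTCCTC in Fcgr1 (first base at -55), Fcgr4 (-22) and Fcgr3. None of the matches overlapped another, and neither Fcgr2b nor Fcer1g held any of the 3 motifs in this window. The windows of Fcgr2b and Fcgr3 lay wholly inside the gene spans given above. The bases before the outer end of these genes were therefore not searched. A match describes letters in the sequence and was not tested as a binding site.

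Levels are given as CPM, the UMIs of a gene per 1000000 UMIs of its library, and since each UMI marks 1 captured 3′ end they were not divided by transcript length when genes were compared. In these sums over cells, fewer expressing cells and less RNA per cell cannot be told apart.

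Among the activating receptors, Fcgr3 was the most abundant at every stage. After saline its level was 454, 436 and 434 CPM at E13, 661, 746 and 747 at E15 and 693, 770.0, 733 and 722 at P14 (replicates 1, 2, 3F and 3M). After MIA it was 488, 437 and 447 CPM at E13, 715, 776 and 683 at E15 and 712 and 906 at P14. All 6 E13 libraries lay below all others, and the E15 and P14 libraries overlapped.

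Fcgr1, the high-affinity receptor, was expressed at 214, 194 and 199.7 CPM at E13, 237, 266 and 273 at E15 and 349, 381, 378 and 389.5 at P14 after saline. The levels after MIA were 222, 216 and 208 CPM at E13, 208, 287 and 235 at E15 and 361 and 374 at P14. Every P14 library was above every embryonic library, whereas E13 and E15 libraries overlapped after MIA and not after saline. Microglia-gated cells had more microglial than neuronal or erythroid marker UMIs and fewer than 3 blood myeloid markers. In these cells Fcgr1 after MIA was at 223, 220 and 211 CPM at E13 and 246, 299 and 239 at E15, without overlap.

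Fcgr4, the remaining activating receptor, was expressed at low levels. Its CPM after saline was 27.3, 22.1 and 22.6 at E13, 31.4, 42.4 and 33.8 at E15 and 5.68, 5.81, 6.90 and 5.82 at P14. After MIA it was 22.6, 29.2 and 22.8 at E13, 31.9, 35.1 and 33.3 at E15 and 5.87 and 6.83 at P14. All stages were thus separate from each other, with the highest level at E15 and the lowest at P14, where a library held 126 to 222 Fcgr4 UMIs.

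Fcgr2b, the inhibitory receptor, was at 16.5, 10.8 and 13.3 CPM at E13, 35.9, 47.8 and 43.8 at E15 and 154, 157, 136 and 133 at P14 after saline, and at 11.7, 16.2 and 12.1, then 43.4, 52.1 and 40.9, then 153 and 167 after MIA. The stages did not overlap, and each later stage was the higher. In P14 saline 3F and 3M, the cells left out when shared barcodes were counted once had 27.6 and 29.3 CPM of Fcgr2b against 145 and 139 in the cells kept, and 2330 and 2304 CPM of the dividing-cell markers against 73.2 and 115. Without them the mean of P14 saline was 149 CPM, against 145 ± 12.2 (SD, n = 4) with them.

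Fcer1g, the shared signalling chain, was the most abundant member in every library. It was at 2154, 2013 and 2035 CPM at E13, 2678, 2797 and 2549 at E15 and 2651, 2279, 2203 and 2103 at P14 after saline. After MIA it was at 2133, 1850.05 and 2337 CPM at E13, 3017, 2663 and 2145 at E15 and 2547 and 2373 at P14. Its range was the narrowest of the members in relative terms, and E13 and P14 overlapped.

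**Figure D1:**
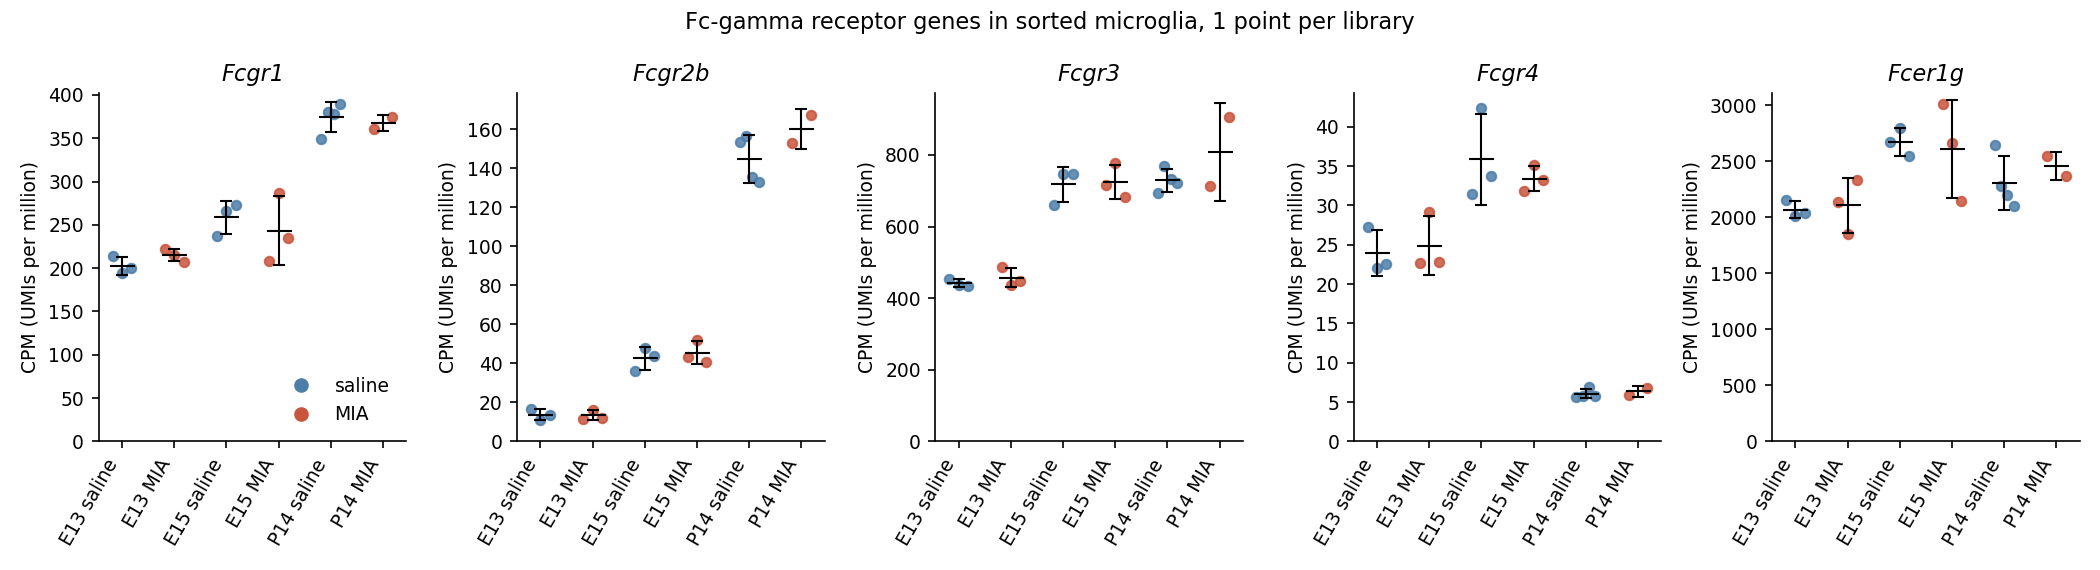
Levels of the 5 genes in the 18 libraries, in CPM on linear axes from 0, by stage and treatment. Each point is a library (saline blue, MIA red) and bars give the mean ± SD of the group. Fcgr2b climbs from 10.8 to 16.5 CPM at E13 to 133 to 167 at P14, whereas Fcgr4 peaks at E15 and lies at 5.68 to 6.90 at P14.

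The order of the levels was Fcer1g, Fcgr3 and Fcgr1 in all 18 libraries, with ranges that did not overlap between these neighbours at any stage. The order of the last 2 members depended on stage. At E13, Fcgr4 was above Fcgr2b in 6 of 6 libraries, with Fcgr2b at 0.490 to 0.605 times Fcgr4. At E15, Fcgr2b was above Fcgr4 in 6 of 6 libraries, but the ranges of both genes overlapped (ratio 1.13 to 1.49). At P14, Fcgr2b was at 19.7 to 27.1 times Fcgr4.

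The first question was whether maternal immune activation altered these receptors in the microglia of the offspring. None of the 5 genes passed the test between MIA and saline at E13, E15 or P14, and the CPM ranges of the groups overlapped for all 5 at every stage, with 3.68%, 2.55% and 10.3% of all genes apart at E13, E15 and P14. At E13 the means were 215 ± 7.27 CPM after MIA against 202 ± 9.93 after saline for Fcgr1 (SD, n = 3 and 3) and 457 ± 27.1 against 441 ± 11.0 for Fcgr3. The log2 fold change with its 95% interval was 0.07 (-0.17 to 0.32) for Fcgr1, 0.04 (-0.24 to 0.31) for Fcgr3, 0.03 (-0.25 to 0.30) for Fcgr4, -0.05 (-0.44 to 0.34) for Fcgr2b and 0.02 (-0.30 to 0.33) for Fcer1g. Across all genes at E13, edgeR's quasi-likelihood test with Benjamini-Hochberg adjustment over 12994 genes called 0 (0%), 101 genes had an unadjusted p under 0.05, and DESeq2 called 2.

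At E15 the intervals were wider. The log2 fold change was -0.10 (-0.51 to 0.32) for Fcgr1, 0.0039 (-0.33 to 0.34) for Fcgr3, -0.11 (-0.51 to 0.29) for Fcgr4, 0.09 (-0.33 to 0.51) for Fcgr2b and -0.05 (-0.44 to 0.34) for Fcer1g. The largest spread was that of Fcer1g after MIA, at 2608 ± 438 CPM (SD, n = 3) against 2675 ± 124 after saline. edgeR called 0 of 14020 genes (0%), with 54 at an unadjusted p under 0.05, and DESeq2 called 0.

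At P14 the fold changes were positive in 4 of the 5 members. They were 0.17 (-0.06 to 0.40) for Fcgr3, 0.16 (-0.08 to 0.41) for Fcgr2b, 0.09 (-0.25 to 0.43) for Fcgr4, 0.11 (-0.18 to 0.39) for Fcer1g and -0.01 (-0.16 to 0.14) for Fcgr1. The value of Fcgr3 rested on P14 MIA replicate 2, which at 906 CPM was above all other libraries, and was -0.0071 without that library. edgeR called 0 of 13640 genes (0%), with 417 at an unadjusted p under 0.05, and DESeq2 called 1, which was not a member. The edgeR adjusted p-values of the members were 0.999974 at E13, 0.99998 at E15 and 0.991714 to 0.995154 at P14. These intervals leave room for changes of up to 0.51 on the log2 scale, so that small responses would not have been detectable with 2 to 4 libraries a group.

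**Figure D2:**
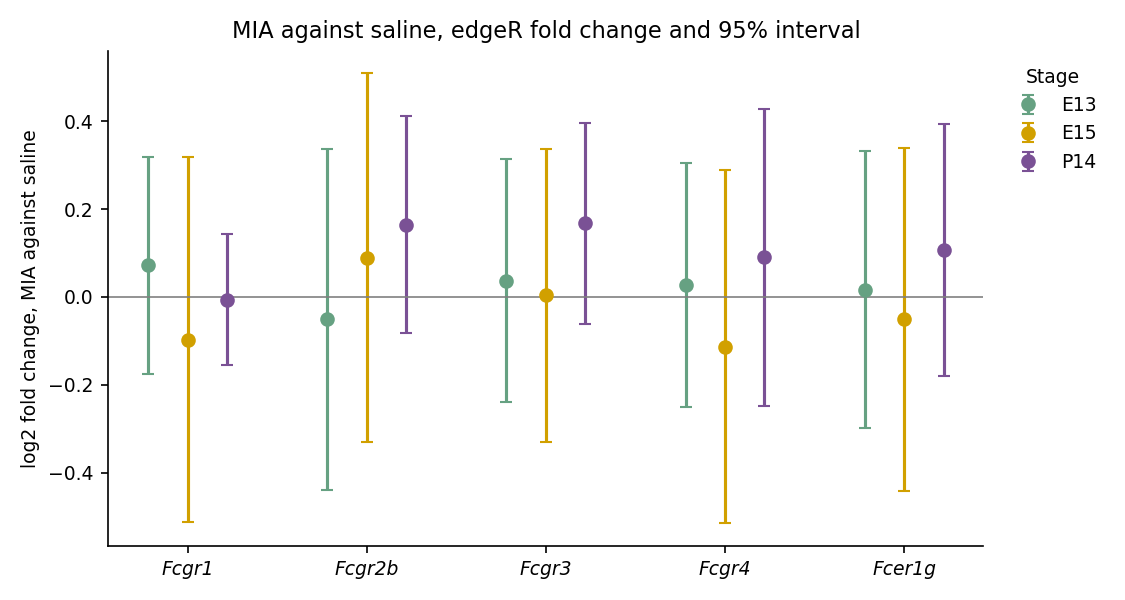
Log2 fold change of MIA against saline for each gene at E13, E15 and P14 (edgeR), with the 95% interval as a bar and 0 as the grey line. All 15 intervals include 0, and they are widest at E15, where they reach from -0.51 to 0.51.

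The response to MIA was also compared between stages by an interaction contrast. For E15 against E13, the difference of the responses was -0.17 (-0.50 to 0.16) for Fcgr1, 0.14 (-0.32 to 0.61) for Fcgr2b and -0.14 (-0.54 to 0.26) for Fcgr4 on the log2 scale, and it was closer to 0 for Fcgr3 (-0.03) and Fcer1g (-0.06). For P14 against E15, differences ran from 0.08 for Fcgr2b to 0.21 for Fcgr4. None passed the test (edgeR adjusted p = 0.999942 and 0.999883), and across all 15121 genes 0 (0%) were called in either contrast, with 89 and 181 genes at an unadjusted p under 0.05 and 0 called by DESeq2 in both.

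Between stages, by contrast, the receptors differed widely, and the direction depended on the receptor. From E13 to E15 after saline, Fcgr2b rose by 1.62 ± 0.15 (log2 fold change ± SE, edgeR adjusted p = 1.67e-05), from 13.6 ± 2.86 to 42.5 ± 6.06 CPM (SD, n = 3 and 3). Fcgr3 rose by 0.67 ± 0.11 (edgeR adjusted p = 0.000788), Fcgr4 by 0.56 ± 0.13 (edgeR adjusted p = 0.00861) and Fcgr1 by 0.33 ± 0.11 (edgeR adjusted p = 0.0479). For Fcer1g the value was 0.35 ± 0.15 (edgeR adjusted p = 0.105). Thus 4 of 5 members were called higher and 0 lower, against 20.6% of the 15121 genes called, 10.7% higher and 9.86% lower. The ranges of all 5 members were apart between both groups, against 39.9% of all genes. Of the 17 microglia markers, 13 were called higher in the same step, with a median log2 fold change of 0.72.

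After MIA the same step gave 3 members called higher, Fcgr2b by 1.77 ± 0.16 (edgeR adjusted p = 1.46e-05), Fcgr3 by 0.64 ± 0.11 (edgeR adjusted p = 0.000843) and Fcgr4 by 0.42 ± 0.13 (edgeR adjusted p = 0.0289). The values for Fcgr1, 0.16 ± 0.11 (edgeR adjusted p = 0.297), and for Fcer1g, 0.28 ± 0.15 (edgeR adjusted p = 0.156), did not pass. With each library left out, Fcgr1 ran from 0.04 to 0.29 and was not called. Fcer1g ran from 0.16 to 0.44 and was called without E15 MIA replicate 3 (edgeR adjusted p = 0.0365). Calls that other alternatives gained are listed with the processing. Of all genes, 30.3% were called, 16.4% higher and 14% lower. The ranges of the 3 called members were apart, against 33.9% of all genes. Fcgr1 was called after saline and not after MIA, but no difference between treatments was detected, since the interaction did not pass.

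The calls for Fcgr2b and Fcgr3 held under every alternative, with log2 fold changes of 1.51 to 1.95 and 0.62 to 0.77 after saline and 1.67 to 2.13 and 0.57 to 0.81 after MIA. Those for Fcgr4 were lost outside the dividing gate, a gate of cells with at least 3 of 12 dividing-cell markers that held 61.1% to 68.6% of cells at E13 and 11.7% to 47.4% at E15. In the remaining cells Fcgr4 was at 31.0 to 48.5 CPM at E13 and 34.3 to 44.5 at E15, with a log2 fold change of 0.17 after saline (edgeR adjusted p = 0.53) and 0.05 after MIA (edgeR adjusted p = 0.908). They were also lost outside the interferon gate (0.39 after saline, edgeR adjusted p = 0.0525, and 0.22 after MIA, edgeR adjusted p = 0.291), and after MIA with only the 2 groups in the fit (edgeR adjusted p = 0.0777) or without E13 MIA 1, E13 MIA 3 or E15 MIA 2 (edgeR adjusted p up to 0.0738). The call for Fcgr1 after saline was lost in the same cells (0.26, edgeR adjusted p = 0.177) and when shared barcodes were counted once (0.32, edgeR adjusted p = 0.0500018), with the replicate block (0.32, edgeR adjusted p = 0.0530), with only the 2 groups in the fit (0.30, edgeR adjusted p = 0.116), with no filter on low counts (edgeR adjusted p = 0.0836), outside the interferon gate (edgeR adjusted p = 0.0538) and when any library other than E15 saline replicate 1 was left out (edgeR adjusted p up to 0.118).

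From E15 to P14 after saline, Fcgr4 fell by 2.75 ± 0.13 on the log2 scale (edgeR adjusted p = 9.65e-10), from 35.9 ± 5.79 to 6.05 ± 0.570 CPM (SD, n = 3 and 4), while Fcgr2b rose by 1.59 ± 0.15 (edgeR adjusted p = 6.36e-07), to 145 CPM. Fcgr1 rose by 0.35 ± 0.10 (edgeR adjusted p = 0.0115), to 374 ± 17.3 CPM. Fcer1g fell by 0.39 ± 0.14 (edgeR adjusted p = 0.0268), to 2309 ± 239 CPM. For Fcgr3 the value was -0.16 ± 0.10 (edgeR adjusted p = 0.202), with 718 ± 49.2 CPM at E15 and 729.6 ± 31.9 at P14. Thus 2 members were called higher and 2 lower, in a step in which 48% of all genes were called, 24.2% higher and 23.9% lower. The ranges of Fcgr1, Fcgr2b and Fcgr4 were apart, against 55.8% of all genes.

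After MIA, Fcgr4 fell by 2.54 ± 0.17 (edgeR adjusted p = 6.08e-08), Fcgr2b rose by 1.67 ± 0.16 (edgeR adjusted p = 2.61e-06) and Fcgr1 rose by 0.45 ± 0.12 (edgeR adjusted p = 0.00953). The values were 0.0082 ± 0.12 for Fcgr3 (edgeR adjusted p = 0.964) and -0.23 ± 0.17 for Fcer1g (edgeR adjusted p = 0.282). Of all genes, 38.1% were called, 17.8% higher and 20.3% lower. The ranges of the 3 called members were apart, against 59% of all genes.

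The calls for Fcgr4 and Fcgr2b in this step held in every alternative, at -2.98 to -2.44 and 1.51 to 1.77 after saline and -2.73 to -2.19 and 1.48 to 1.82 after MIA. Outside the interferon gate, the cells with fewer than 3 of 16 interferon-stimulated genes, Fcgr4 still fell by 2.44 after saline (edgeR adjusted p = 9.83e-10). Scaling to library totals instead of the trimmed mean of M-values (TMM) moved the median of all genes after saline from 0.03 to 0.21, and the share of called genes that were higher from 50.3% to 63.9%. On that scale Fcer1g was no longer called (-0.21, edgeR adjusted p = 0.139) and Fcgr3 was at 0.02. Fcer1g was also not called with 3F and 3M summed (edgeR adjusted p = 0.0695), outside the interferon gate (edgeR adjusted p = 0.0725), or without any of E15 saline 1 (0.103) or 2 (0.116), P14 saline 2 (0.0632), 3F (0.0616) or 3M (0.0759), edgeR adjusted p in parentheses. Fcgr1 after MIA was not called in microglia-gated cells (0.27, edgeR adjusted p = 0.0742), with only the 2 groups in the fit (edgeR adjusted p = 0.158) or without P14 MIA replicate 2 (edgeR adjusted p = 0.0728).

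**Figure D3:**
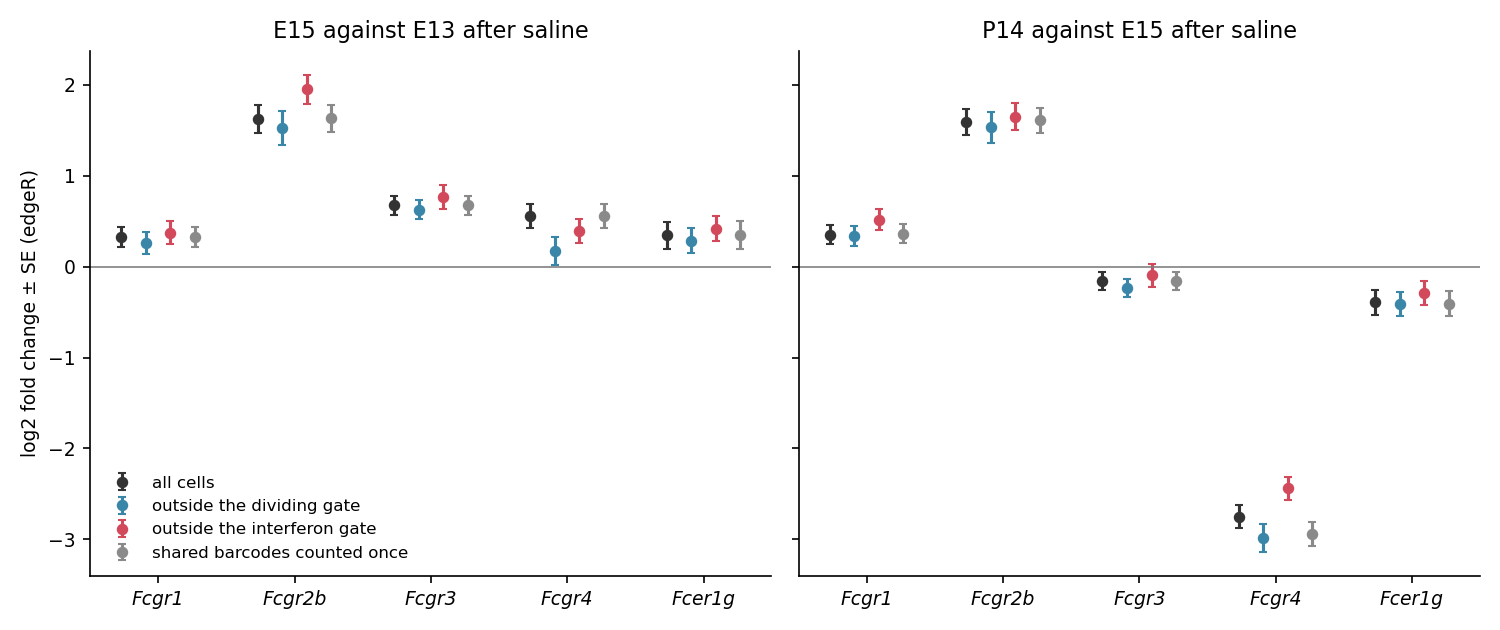
Log2 fold change ± SE after saline for E15 against E13 and for P14 against E15, in all cells, outside the dividing gate, outside the interferon gate and with shared barcodes counted once (edgeR). Fcgr4 in the first step moves from 0.56 in all cells to 0.17 outside the dividing gate, whereas Fcgr2b stays at 1.53 or above in each set of cells in both steps.

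The make-up of the receptor family therefore differed between stages. Fcgr3 contributed 62.6% to 65.8% of the UMIs of the 4 receptors at E13, 67.5% to 71.6% at E15 and 57.7% to 62.3% at P14, and Fcgr1 29.3% to 30.9%, 20.9% to 24.9% and 25.7% to 31.2%. The share of the inhibitory receptor Fcgr2b was 1.57% to 2.33% at E13, 3.72% to 4.53% at E15 and 10.6% to 12.8% at P14, and that of Fcgr4 was 3.04% to 4.19%, 3.05% to 3.85% and 0.443% to 0.550%. Activating receptor UMIs (Fcgr1, Fcgr3 and Fcgr4 summed) exceeded those of Fcgr2b by 42.0 to 62.8 times at E13, 21.1 to 25.9 times at E15 and 6.82 to 8.42 times at P14. The mean ratio after MIA and after saline was 53.5 ± 10.6 and 50.6 ± 9.24 at E13, 22.1 ± 1.11 and 24.0 ± 1.92 at E15 and 7.37 ± 0.452 and 7.72 ± 0.749 at P14 (SD, n = 3, 3, 3, 3, 2 and 4), with overlapping ranges at each stage. For each activating receptor UMI there were 2.71 to 3.45 Fcer1g UMIs at E13, 2.26 to 3.16 at E15 and 1.84 to 2.53 at P14. These ratios are a description, and no test was run on them.

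**Figure D4:**
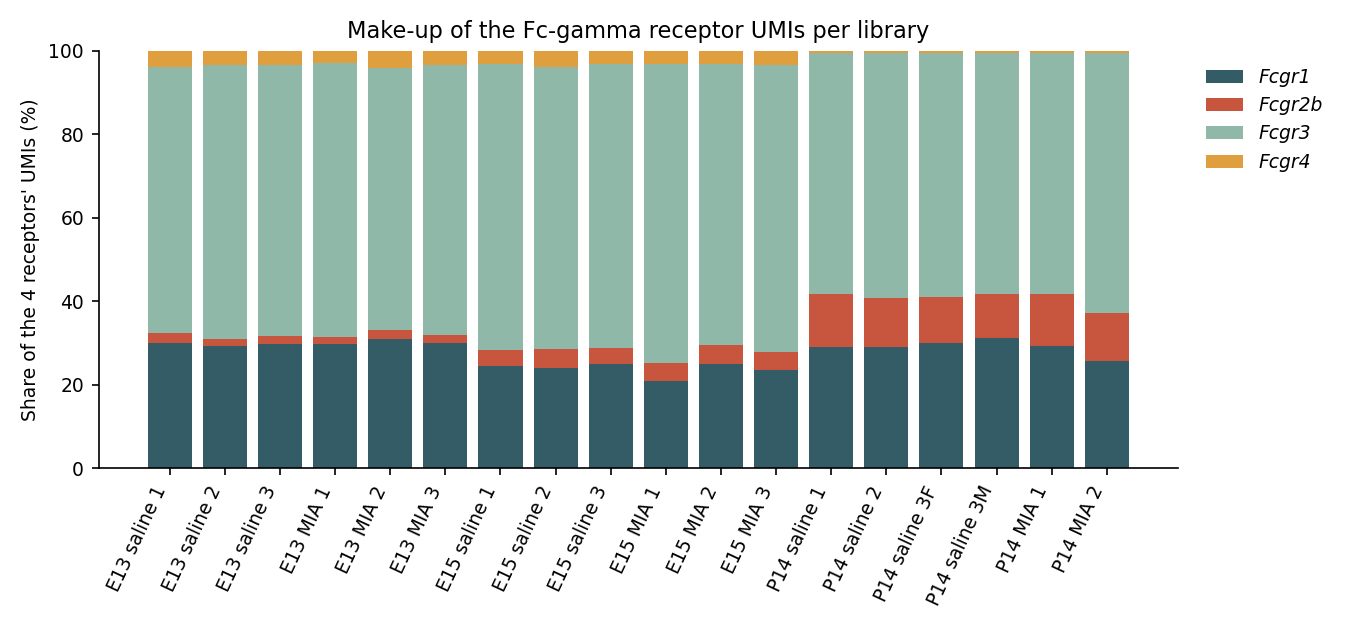
Share (%) of the UMIs of Fcgr1, Fcgr2b, Fcgr3 and Fcgr4 in each of the 18 libraries, as stacked bars that add up to 100%. Fcgr3 is the largest part in every library, and the part of Fcgr2b widens from at most 2.33% at E13 to at least 10.6% at P14.

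The share of cells with at least 1 UMI of a gene was compared after each cell was thinned to 2000 UMIs, which left out 3005 shallower cells at E13, 2771 at E15 and 1881 at P14. Fcgr2b was detected in 2.04% to 3.48% of thinned cells at E13, 6.89% to 9.26% at E15 and 22.3% to 27.1% at P14 (12.7% to 17.5%, 25.7% to 32.0% and 39.4% to 57.0% before thinning). Fcgr4 was detected in 4.29% to 6.37%, 5.09% to 6.58% and 1.09% to 1.26% of thinned cells (20.6% to 32.1%, 17.3% to 26.0% and 2.10% to 3.49% before thinning), so that its E13 and E15 shares overlapped. Fcgr1 was detected in 30.7% to 35.5%, 30.9% to 40.7% and 49.2% to 53.1%, Fcgr3 in 51.0% to 57.2%, 64.7% to 74.2% and 73.3% to 81.7%, and Fcer1g in 90.8% to 95.6%, 84.5% to 96.3% and 97.1% to 98.5%. The background from free RNA was read in the neuron-like cells, of which there were 591, 2363 and 118 in the 3 stages. Before thinning, at medians of 1788 to 5509 UMIs per cell, 0%, 0.592% and 0% of them held an Fcgr2b UMI, 0.338%, 0.212% and 0% an Fcgr4 UMI, 3.21%, 3.13% and 0.847% an Fcgr1 UMI, 7.28%, 9.61% and 5.08% an Fcgr3 UMI and 27.1%, 34.0% and 20.3% an Fcer1g UMI. A count of 0 allows a share of up to 0.508% in the 591 cells of E13 and 2.54% in the 118 of P14 (counting error only). The thinned share of Fcgr4 at P14 lies below that limit, so it could not be told from background by this measure.

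Within libraries, the members separated in CPM by the state of the cell. Cells in the interferon gate (at least 3 of the 16 interferon-stimulated genes, among them Ifit3, Isg15 and Irf7) made up 24.5% to 57.5% of cells at E13, 11.0% to 26.1% at E15 and 4.40% to 9.82% at P14. At E15 the level of Fcgr4 in these cells was 36.0 to 89.1 CPM against 22.8 to 29.0 in the other cells, higher in 6 of 6 libraries with a median ratio of 2.71. At P14 it was 7.71 to 15.0 against 5.17 to 6.02 CPM, again higher in 6 of 6 libraries (median ratio 2.19, from 178 UMIs in all gated cells), and at E13 it was higher in 5 of 6 libraries (median ratio 1.20). Fcgr1 was higher in gated cells in 6 of 6 libraries at each stage, with median ratios of 1.10, 1.41 and 1.28. The median ratio of Fcgr3 was 1.02, 0.944 and 0.986, that of Fcer1g 1.06, 1.07 and 1.04, and that of Fcgr2b 1.35, 0.998 and 1.08 for E13, E15 and P14. At E13, Fcgr2b and Fcer1g were higher in gated cells in 6 of 6 libraries each, and the ratio of Fcgr2b was the highest of the members. With a stricter gate of at least 5 genes the median ratio of Fcgr4 was 6.49 at E15 and 3.74 at P14, and that of Fcgr1 2.30 and 1.63. Gated cells were also deeper, with median UMIs of 25852 to 35330 against 3144 to 7466 at E13, 10679 to 19244 against 8143 to 10206 at E15 and 4261 to 7501 against 3658 to 6718 at P14, and the part of depth in these ratios was not tested. In UMIs per cell, all 5 members were higher inside the gate in 6 of 6 libraries at each stage. The median per-cell ratios at E13, E15 and P14 were 3.38, 4.12 and 2.75 for Fcgr4 and 3.03, 2.19 and 1.57 for Fcgr1. They were 3.87, 1.56 and 1.29 for Fcgr2b, 2.65, 1.52 and 1.23 for Fcgr3 and 2.87, 1.77 and 1.24 for Fcer1g.

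In embryonic dividing cells every member made up less of the UMIs. At E13 and at E15 the CPM of all 5 genes was lower inside the dividing gate in 6 of 6 libraries each. Gated cells held more UMIs in all, with medians of 11954 to 30832 against 2063 to 8143 at E13, so that UMIs per cell did not follow the CPM. At E13 each of the 5 genes had more UMIs per cell inside the gate in 6 of 6 libraries, for Fcgr4 0.400 to 0.604 against 0.234 to 0.511, and at E15 the libraries were divided. The median ratio to the other cells was lowest for Fcgr4, at 0.563 at E13 and 0.567 at E15. At E13 it was 0.790 for Fcgr2b and 0.845 to 0.861 for Fcgr3, Fcer1g and Fcgr1. At E15 it was 0.629 for Fcgr3, 0.636 for Fcgr2b and 0.794 to 0.801 for Fcgr1 and Fcer1g. At P14 only 4 libraries had the 20 gated cells required, with 0.807% to 3.22% of cells in the gate. There Fcgr1, Fcgr2b, Fcgr3 and Fcer1g were again lower inside the gate in 4 of 4 libraries (median ratios 0.620, 0.567, 0.567 and 0.854), whereas Fcgr4 was higher in 2 of 4, with a median ratio of 1.96 (0 to 3.75) from 51 UMIs in all gated cells. These P14 values rested on cells with shared barcodes. With these counted once only 3F and 3M had 20 gated cells (22 and 26), which held 0 Fcgr4 UMIs, and the median ratio of Fcgr2b was 1.40, higher in 2 of 2. The gates rest on markers other than the members, and the comparisons across cells were made without a test.

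**Figure D5:**
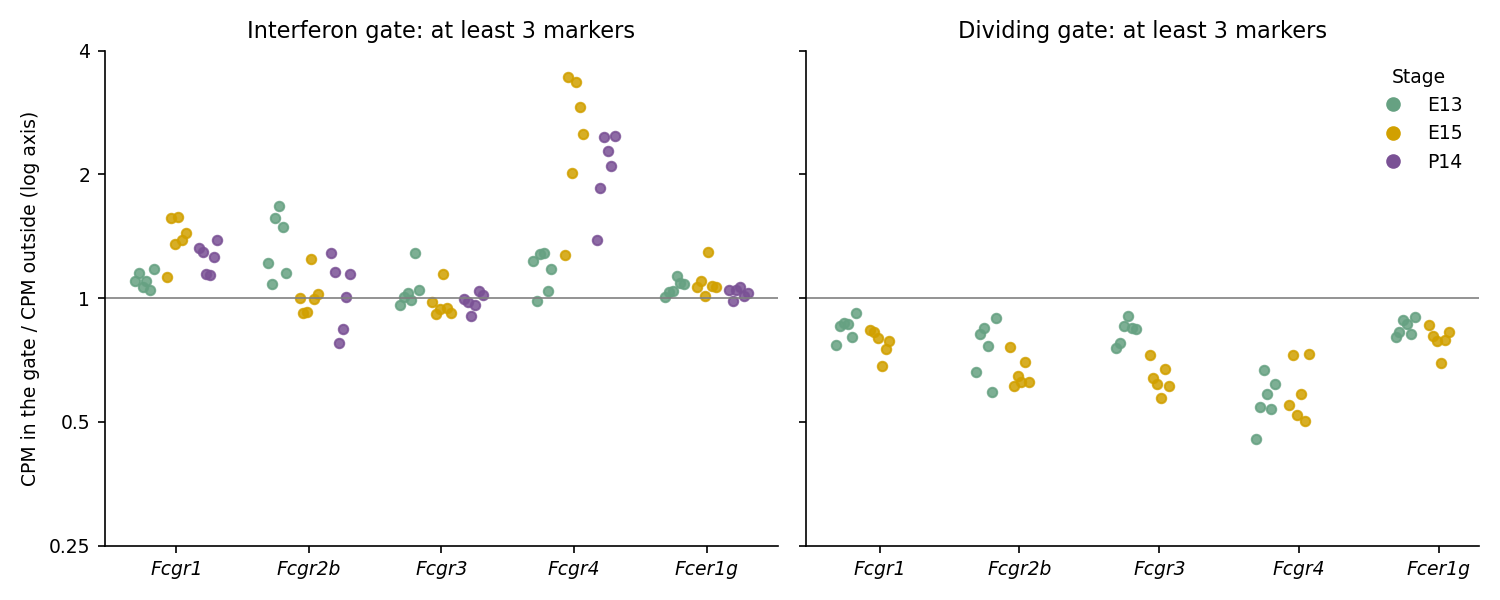
Ratio of the CPM inside a gate to the CPM of the other cells of the same library, on a log axis, for the interferon gate (left, all stages) and the dividing gate (right, E13 and E15). Each point is a library and the line at 1 marks equal levels. Fcgr4 and Fcgr1 lie above 1 in the interferon gate at E15 and P14, and all 5 genes lie below 1 in the dividing gate at E13 and E15. The P14 values of the dividing gate, which rested on cells with shared barcodes, are not drawn.

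Markers of other cells moved with stage, and some between MIA and saline within a stage, where none was called (0% of all genes). Their part in the receptor differences was not tested except where gated values are given. For MIA against saline, the median log2 fold change at E13 was 0.89 for interferon-stimulated genes and 1.04 for 4 blood myeloid genes (all genes 0.0051). At E15 it was 1.07 for neuron and progenitor markers and -0.84 for dividing-cell markers. At P14 it was -1.40 for dividing-cell markers and -3.77 for 6 erythroid genes. Microglia markers were at -0.01, 0.02 and 0.08. Between stages, 13 of 17 microglia markers were called higher from E13 to E15 after either treatment (10.7% and 16.4% of all genes). Their median log2 fold change was 0.72 after saline and 0.70 after MIA. From E15 to P14, 14 were called higher after saline and 15 after MIA (24.2% and 17.8% of all genes), with medians of 1.00 and 0.97. The dividing-cell markers were at 1756 to 2559 CPM at E13, 600.2 to 2162 at E15 and 28.4 to 258 at P14 (26.2 to 115 with shared barcodes counted once). From E13 to E15, 1 of 12 was called lower after saline and 8 after MIA (9.86% and 14% of all genes). From E15 to P14 all 12 fell after either treatment (23.9% and 20.3%). The interferon-stimulated genes were at 371 to 742, 416 to 927 and 257 to 305 CPM. Of these 16 genes, 9 were called higher from E13 to E15 after saline (10.7% of all genes), with a median log2 fold change of 1.73. After MIA 3 were higher and 3 lower (16.4% and 14%). From E15 to P14, 12 were lower after either treatment. The 12 neuron and progenitor markers were at 221 to 374, 288 to 2506 and 28.8 to 63.5 CPM. From E13 to E15, 6 were called higher after saline (10.7% of all genes), and 9 higher and 1 lower after MIA (16.4% and 14%). From E15 to P14, 11 were called lower after saline and 12 after MIA, against 23.9% and 20.3% of all genes. Cells with at least 3 border macrophage markers made up 33.5% to 65.7% of a library at E13, 20.7% to 36.7% at E15 and 3.95% to 11.9% at P14. Against the other cells of their library they had median ratios between 0.931 and 1.10 for Fcgr1, Fcgr2b and Fcgr3, and of 1.11, 1.12 and 1.03 for Fcer1g. For Fcgr4 the ratio was 0.927, 0.796 and 1.39. With at least 5 markers, a gate of 7.48% to 26.8% of cells at E13 and 2.57% to 9.06% at E15, the median ratios at E13 and E15 were 1.12 and 0.998 for Fcgr1, 1.21 and 0.918 for Fcgr2b, 0.892 and 0.884 for Fcgr3, 0.857 and 0.628 for Fcgr4 and 1.27 and 1.17 for Fcer1g. At P14 this gate held 0.344% to 0.721% of cells in the 4 libraries with at least 20 such cells, and the ratios were 0.702, 0.687, 0.823, 1.30 and 1.24 in the same order, with 8 UMIs of Fcgr4 in all. In the neuron-like cells of the 14 libraries with at least 20 of them, Fcer1g was at 12.9 to 139 CPM, Fcgr3 at up to 45.7, Fcgr1 at up to 16.9, Fcgr2b at up to 3.22 and Fcgr4 at up to 1.14 CPM, each below the other cells of its library.

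The genes downstream of the receptors were read from lists of the pathway. Of 26 genes of ITAM and ITIM signalling, all tested, 4 rose and 1 fell from E13 to E15 after saline, with a median log2 fold change of -0.03 against 0.04 over all genes, of which 10.7% were called higher and 9.86% lower. Tyrobp (DAP12), the other ITAM adaptor of microglia, rose by 0.47 ± 0.13 (edgeR adjusted p = 0.0181), a call lost in 4 of 6 fits that left out a library (edgeR adjusted p up to 0.0512). The adaptor Blnk rose by 0.59 ± 0.12 (edgeR adjusted p = 0.00358) and the kinase Src by 0.74 ± 0.18 (edgeR adjusted p = 0.0113), the latter lost outside the dividing gate (0.47) and outside the interferon gate (edgeR adjusted p up to 0.129). Dok2, a docking protein that dampens kinase signalling, fell by 1.76 ± 0.53 (edgeR adjusted p = 0.0279), a call that stood without E15 saline replicate 1 and was lost without any of the other 5 libraries (edgeR adjusted p up to 0.115). Syk, the kinase recruited by the Fcer1g ITAM, was at 0.14 (edgeR adjusted p = 0.661). Inpp5d, the phosphatase recruited by the Fcgr2b ITIM, was at -0.04 (edgeR adjusted p = 0.927) in the step in which Fcgr2b rose 1.62. After MIA 4 rose and 5 fell (median -0.14), with 16.4% of all genes called higher and 14% lower (median 0.06). There Dok2 fell by 2.51 ± 0.55 (edgeR adjusted p = 0.00459) and Src rose by 0.998 ± 0.20 (edgeR adjusted p = 0.00243), both called in every alternative. The exchange factor Vav3 fell by 1.65 ± 0.52 (edgeR adjusted p = 0.0264), a call lost in 4 of 6 fits that left out a library and outside both gates (edgeR adjusted p up to 0.0795).

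From E15 to P14, 10 of the 26 rose and 4 fell after either treatment, with medians of 0.30 after saline and 0.43 after MIA. Over all genes 24.2% were called higher and 23.9% lower after saline (median 0.03), and 17.8% and 20.3% after MIA (median -0.03). Inpp5d rose by 0.92 ± 0.22 after saline (edgeR adjusted p = 0.00245) and by 1.05 ± 0.25 after MIA (edgeR adjusted p = 0.00367), the latter not called with only the 2 groups in the fit (edgeR adjusted p = 0.106). Dok3, another docking protein, rose by 1.24 ± 0.26 after MIA (edgeR adjusted p = 0.00153). After saline, Dok2 fell by 2.45 ± 0.52 (edgeR adjusted p = 0.00121), Vav3 fell by 2.37 ± 0.51 (edgeR adjusted p = 0.00123) and the GTPase Rac2 fell by 1.35 ± 0.16 (edgeR adjusted p = 8.92e-06). With shared barcodes counted once, Dok2 fell by 4.80 and Vav3 fell by 3.65, and without E15 saline replicate 1 Dok2 fell by 1.63, all still called. Syk was at 0.41 (edgeR adjusted p = 0.0893) and Tyrobp at -0.24 (edgeR adjusted p = 0.108). Each gained a call in 1 of 7 fits that left out a library (edgeR adjusted p = 0.0357 and 0.0284). Over all alternatives Syk ran from 0.32 to 0.58 and Tyrobp from -0.33 to -0.06.

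Among the 5 subunits of the phagocyte NADPH oxidase, which activating Fc receptors can trigger, none was called from E13 to E15 after saline, where 20.6% of all genes were, and 2 fell after MIA, where 14% of all genes did. These were Cybb, the catalytic subunit, and Ncf4, which fell by 1.82 ± 0.53 (edgeR adjusted p = 0.0188) and 0.69 ± 0.16 (edgeR adjusted p = 0.00670). From E15 to P14, 2 of 5 fell after saline (23.9% of all genes), and 1 rose and 1 fell after MIA (17.8% and 20.3%). Cybb fell by 3.09 ± 0.52 after saline (edgeR adjusted p = 0.000180) and fell by 4.61 ± 0.78 after MIA (edgeR adjusted p = 0.000335). With shared barcodes counted once, Cybb fell by 5.28 after saline and fell by 5.16 after MIA, both still called. Its partner Cyba fell by 0.44 ± 0.15 after saline (edgeR adjusted p = 0.0214), and Ncf1 rose by 0.46 ± 0.17 after MIA (edgeR adjusted p = 0.0389). The call of Ncf1 was lost in 4 of 5 fits that left out a library (edgeR adjusted p up to 0.176, and a value of 0.30 without E15 MIA replicate 1) and in 3 of 13 other alternatives, in microglia-gated cells (0.30), with only the 2 groups in the fit and outside the dividing gate (edgeR adjusted p up to 0.249). That of Cyba was lost in 3 of 7 fits (without E15 saline 1 or 2 or P14 saline 3M, edgeR adjusted p up to 0.0865) and in 3 of 13 other alternatives, with library totals (-0.26, edgeR adjusted p = 0.106), with 3F and 3M summed and outside the interferon gate. That of Cybb from E13 to E15 after MIA was lost without E13 MIA 1 or E15 MIA 1 (edgeR adjusted p up to 0.0629).

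Other immunoglobulin receptors were mostly too low to test, with 4 of 13 listed genes passing the filter on low counts. Fcrls, a microglial marker related to the Fc receptors, rose by 0.49 ± 0.13 from E13 to E15 after saline (edgeR adjusted p = 0.0175) and by 0.32 ± 0.13 from E15 to P14 (edgeR adjusted p = 0.0458). Fcrl1 rose in both steps, by 0.83 ± 0.19 (edgeR adjusted p = 0.00730) and 2.18 ± 0.18 (edgeR adjusted p = 2.26e-07). Fcgrt, which encodes the neonatal Fc receptor, a carrier of immunoglobulin G inside cells, rose by 0.72 ± 0.21 from E13 to E15 (edgeR adjusted p = 0.0245) and fell by 0.53 ± 0.19 from E15 to P14 (edgeR adjusted p = 0.0330), all after saline. The rise of Fcgrt was lost in 3 of 6 fits that left out a library and its fall in 6 of 7 (edgeR adjusted p up to 0.0869 and 0.121). The fall was also lost with library totals (-0.35, edgeR adjusted p = 0.134) and with 3F and 3M summed, and neither step was called after MIA (edgeR adjusted p = 0.104 and 0.206). The rise of Fcgrt after MIA gained a call in 2 of 6 fits that left out a library (0.33 to 0.77, edgeR adjusted p down to 0.0163). It reached 0.83 over all alternatives. For Fcrls the first call was lost in 2 of 6 such fits and the second in 6 of 7 (edgeR adjusted p up to 0.0709 and 0.0979). The second was also lost in 6 of 13 other alternatives, which were DESeq2, its size factors, no filter, microglia-gated cells (0.24, edgeR adjusted p = 0.190), the replicate block and 3F and 3M summed, and it was 0.50 with library totals. After MIA the second step was not called (0.24, edgeR adjusted p = 0.212). Over all alternatives it ran from 0.046 to 0.39, and it was called in some, none of which left out a library.

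Of 12 other receptors linked to the Fcer1g chain, 8 were tested between stages. After saline 2 rose and 1 fell from E13 to E15, where 10.7% and 9.86% of all genes were called higher and lower. From E15 to P14, 0 rose and 5 fell with a median of -1.43, against 24.2% and 23.9% of all genes. The summed level of the listed receptors did not fall in that step, at 455 to 460 CPM in E15 saline and 478 to 565 in P14 saline. The risers were Cd300c2 (1.10 ± 0.15, edgeR adjusted p = 0.000240) and Pirb (1.47 ± 0.19, edgeR adjusted p = 0.000208), and Pirb itself carries inhibitory motifs. The lectin receptors Clec4d and Clec4n, which signal through the chain, fell by 4.58 ± 0.90 (edgeR adjusted p = 0.000632) and 2.99 ± 0.97 (edgeR adjusted p = 0.0185) from E15 to P14, and Pira2, the activating counterpart of Pirb, fell by 3.20 ± 0.55 (edgeR adjusted p = 0.000211). The call of Clec4n was lost without E15 saline 1 or 2 or P14 saline 2 (edgeR adjusted p up to 0.0617), and it fell by 4.49 with shared barcodes counted once. After MIA 2 rose and 1 fell in the first step, against 16.4% and 14% of all genes, and 4 fell in the second, against 20.3%. No gene of these 4 lists was called between MIA and saline at any stage, where 0% of all genes were called. Syk, Tyrobp, Inpp5d, Fcgrt and Fcrls lay between -0.03 and 0.23 at E13, -0.11 and 0.02 at E15 and -0.06 and 0.13 at P14 on the log2 scale.

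The genes whose levels followed each member most closely over the 18 libraries were ranked by Pearson's r of log2(CPM + 1) among 15121 genes, as a description, since all points share 3 stages that differ in depth and collection. For Fcgr2b they were Ecscr (r = 0.994), Gp9 (0.994) and Entpd1 (0.992), and for Fcgr3 Asah1 (0.974), Cd300c2 (0.969) and Adipor1 (0.957). For Fcgr1 they were Mgat1 and Agbl3 (0.982 each), followed by AI987944. For Fcgr4 they were Cxcr2 (0.979), Rps26 (0.978) and Mxra8 (0.978), and for Fcer1g Cyba (0.962), Diras1 (0.905) and Ggh (0.899). With the means of the 6 groups subtracted, the nearest gene was Cyba for Fcer1g (0.953), Ifitm3 for Fcgr4 (0.888), Clec4a3 for Fcgr2b (0.874), Ifngr1 for Fcgr1 (0.851) and Gm42669 for Fcgr3 (0.838). Ifitm3 is among the 16 interferon-stimulated genes of the gate. Between members, r over the 18 libraries was highest for Fcgr1 and Fcgr2b (0.946) and lowest for Fcgr1 and Fcgr4 (-0.813). With group means subtracted it was 0.487 and 0.423 for these pairs, so the sign turned for Fcgr1 and Fcgr4, and was highest for Fcgr2b and Fcgr4 (0.717).

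Counting could not separate every transcript. Of the 91-base stretches of Fcgr2b and Fcgr3 transcripts, 2.03% and 3.58% occurred in another gene as well, those of Fcgr3 all in Fcgr2b. In the last 500 bases, which 3′ counting reads, this held for 23 of 2675 stretches of Fcgr2b and 0 of 979 of Fcgr3. Fcgr1, Fcgr4 and Fcer1g had none. The antisense gene Gm38204 overlaps Fcgr2b, and the strand setting of the counting is not given in the sources used here. On the same strand, the microRNA gene Mir6546 overlaps Fcgr3 and the small nuclear RNA gene Gm26110 overlaps Fcgr4.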

How the data were processed

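The authors deposited UMI counts from a droplet 3′ single-cell kit, as 1 filtered matrix of whole-number counts per library, made with Cell Ranger on a mouse mm10 (GRCm38) reference. The file headers name release 3.1.0 and the methods of the study a later one, and which applies was not settled. Strand settings are not given in the sources used here. Cells with fewer than 500 genes or over 20% mitochondrial UMIs were dropped, and counts were summed per library. No doublet caller was run. As an alternative, the cells with the most UMIs were left out at 0.8% for each 1000 cells. Each treatment comparison was fitted within its stage, and stage comparisons in 1 model of 6 groups, with edgeR 4.0.16 (quasi-likelihood test, TMM, its filter on low counts by group, Benjamini-Hochberg adjustment over all genes tested, threshold 0.05). DESeq2 1.42.0, R 4.3.3 and Python 3.11.15 were used beside it, and the fits were tested on simulated data.

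The members, gene lists, gates and motifs were chosen with earlier results of these data known. Named genes were the 5 members, Tyrobp, Syk, Inpp5d, Fcgrt and Fcrls, and the 3 largest called changes of each list. Alternatives were DESeq2, its size factors, library totals, no filter, stricter cell filters, only microglia-gated cells, only the groups compared, the replicate block, 3F and 3M summed, and each library left out. Those outside the dividing and interferon gates and with shared barcodes counted once (in levels, tests and gates) were added after the data were seen. Same-numbered saline and MIA libraries deviated together at E15 (correlations 0.230, 0.160 and 0.334) and not in every pair at E13 (0.151, 0.0013 and 0.313) or P14 (0.213 and -0.0555). Shared numbers come from the labels. The 8 libraries of nuclei from E15 S1 cortex were left out of all comparisons.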

Additional observations from a re-analysis of the deposited data

Results flagged for a closer look

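Fcgr4 in P14 saline stood out because 1 library lay far from the others. Replicate 3F was at 6.90 CPM against 5.68, 5.81 and 5.82, a gap of 0.887 of the range of the group, past Dixon's 95% critical value for 4 samples. With shared barcodes counted once, 3F was at 5.23 CPM against 5.69, 5.85 and 4.65 in replicates 1, 2 and 3M and no longer stood apart. The cells left out of 3F held 25.7 CPM of Fcgr4. Of 11 measures checked in this group this was the 1 flagged, and chance flags about 1 in 20.

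The members were also looked for in the 8 libraries of nuclei from E15 S1 cortex of wild-type and Csf1r knockout embryos, which entered no comparison. The most UMIs in any of them were 6 for Fcgr1, 7 for Fcgr3 and 25 for Fcer1g, in libraries labelled wild-type. Fcgr2b had 0 to 2 UMIs, and Fcgr4 had 0 in all 8, which allows a level of up to 0.303 CPM in the shallowest (counting error only). The microglial gene C1qa went against 2 labels, with 0 UMIs in replicate 2 labelled wild-type MIA and 19 in replicate 2 labelled Csf1r knockout saline, so no direction between genotypes is drawn. Of these, the library labelled Csf1r knockout held 1 Fcgr1, 5 Fcgr3 and 9 Fcer1g UMIs, and the library labelled wild-type held 0, 0 and 5.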

How the results depend on the processing

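Of 176 recomputed counts of members called, 174 stayed within 1.5 times the main count, a width that lets a call be lost or gained. For MIA against saline and both interactions every count was 0, as for all genes in the main fits, so these counts say little about stability. From E13 to E15 after saline the count was 2 outside the dividing gate and 2 outside the interferon gate, against 4. With each library left out in turn these counts were 0 between MIA and saline and for both interactions, 3 to 4 from E13 to E15 after saline, 2 to 4 after MIA, 3 to 4 from E15 to P14 after saline and 2 to 3 after MIA. Of 880 recomputed log2 fold changes of members, 785 kept direction and call, 61 changed sign, 30 lost a call and 4 gained one. No value that changed sign was called in either fit, and the cause was not tested. Sign changes for MIA against saline at E13 were Fcgr3 -0.063, Fcgr4 -0.058 and Fcer1g -0.027 outside the dividing gate, and Fcgr3 -0.034 and Fcer1g -0.038 outside the interferon gate. At E15 they were Fcgr3 -0.0201 with DESeq2 and -0.0201 with its size factors, -0.041 with no filter, -0.0029 with at least 1000 genes per cell, -0.0296 without the cells with the most UMIs, -0.027 outside the dividing gate and -0.0092 outside the interferon gate, and Fcer1g 0.069 in microglia-gated cells. At P14 the replicate block gave 0.0021 for Fcgr1 and -0.0082 for Fcer1g. The interaction of E15 and E13 became 0.063, 0.066 and 0.049 for Fcgr3 and 0.044, 0.0060 and 0.0027 for Fcer1g in microglia-gated cells and outside the dividing and interferon gates, and that of P14 and E15 became -0.026 for Fcgr2b in microglia-gated cells. From E15 to P14, Fcgr3 was 0.024 after saline with library totals, and after MIA -0.018 with DESeq2, -0.018 with its size factors, -0.18 in microglia-gated cells, -0.016 with at least 1000 genes, -0.0039 with the replicate block, -0.0079 with shared barcodes counted once and -0.057 outside the dividing gate. Inpp5d from E13 to E15 became 0.031, 0.0603 and 0.0951 after saline and 0.017, 0.013 and 0.041 after MIA in microglia-gated cells and outside the dividing and interferon gates, and 0.018 after saline without the cells with the most UMIs. Tyrobp from E15 to P14 after MIA became 0.073 with library totals and 0.0054 outside the interferon gate. With each library left out, signs changed within -0.18 to 0.088 (Fcgr2b), -0.041 to 0.11 (Fcgr3), -0.0505 to 0.11 (Fcgr4) and -0.082 to 0.14 (Fcer1g) for MIA at E13, -0.046 to 0.19, -0.072 to 0.035, -0.21 to 0.027 and -0.17 to 0.038 for the same genes at E15, and -0.025 to 0.012 (Fcgr1), -0.0071 to 0.32 (Fcgr3) and -0.015 to 0.18 (Fcgr4) at P14. The interaction of E15 and E13 ran from -0.10 to 0.033 (Fcgr3), -0.21 to 0.0073 (Fcgr4) and -0.18 to 0.063 (Fcer1g), that of P14 and E15 from -0.023 to 0.23 (Fcgr1), -0.032 to 0.19 (Fcgr2b) and -0.0084 to 0.33 (Fcgr3), and E15 to P14 after MIA from -0.16 to 0.17 (Fcgr3). From E13 to E15, Inpp5d ran from -0.13 to 0.13 after saline and -0.32 to 0.23 after MIA, and Syk from -0.15 to 0.33 after MIA. The replicate block changed 1 member call, Fcgr1 from E13 to E15 after saline (edgeR adjusted p = 0.0530). Fcer1g from E13 to E15 gained a call after saline with library totals (0.37, edgeR adjusted p = 0.0468) and after MIA outside the interferon gate (0.42, edgeR adjusted p = 0.0440) or without E15 MIA replicate 3 (edgeR adjusted p = 0.0365), and Fcgr1 after MIA in microglia-gated cells (0.30, edgeR adjusted p = 0.0394). Fcgr4 from E13 to E15 after MIA was not called with only the 2 groups in the fit (edgeR adjusted p = 0.0777), outside the interferon gate (0.22, edgeR adjusted p = 0.291) or without E13 MIA 1 (0.0738), E13 MIA 3 (0.0660) or E15 MIA 2 (0.0683), and after saline not outside the interferon gate (0.39, edgeR adjusted p = 0.0525). Group means on TMM-scaled library sizes were 215 and 224 CPM for Fcgr1 at E13 after saline and MIA, 343 and 341 at P14, 149 for Fcgr2b at P14 after MIA, 468 and 668 for Fcgr3 at E13 and P14 after saline, and 2191 and 2282 for Fcer1g at E13 after saline and P14 after MIA. In microglia-gated cells of E15 MIA, Fcgr3 was at 783 and Fcgr4 at 36.0 CPM, and Fcgr4 in P14 saline was at 5.35 with shared barcodes counted once. Thinned to 1000 UMIs, the median shares at E13, E15 and P14 were 18.7%, 21.3% and 30.8% for Fcgr1, 1.14%, 4.17% and 13.8% for Fcgr2b, 33.2%, 47.6% and 50.5% for Fcgr3, 2.38%, 3.04% and 0.597% for Fcgr4 and 81.4%, 85.0% and 87.0% for Fcer1g. With at least 5 markers the median ratio in the interferon gate was 1.22, 2.30 and 1.63 for Fcgr1 at E13, E15 and P14 and 6.49 and 3.74 for Fcgr4 at E15 and P14. With shared barcodes counted once, the median ratio in the dividing gate was 0.694 for Fcgr2b at E15 and, at P14, 0.866 for Fcgr1, 1.40 for Fcgr2b, 0.526 for Fcgr3 and 0 for Fcgr4. The number of genes called from E13 to E15 was 3110 after saline and 1937 outside the dividing gate, and 4589 after MIA, 2042 outside the dividing gate, 2905 outside the interferon gate and 1394 with only the 2 groups in the fit. With each library left out it was 1528 to 4314 after saline. From E15 to P14 after MIA it was 5760, 2545 with only the 2 groups in the fit and 3120 without P14 MIA replicate 2. Depth limits Fcgr4 at P14, with 126 to 222 UMIs a library.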
